A study of Mus musculus with 6 samples.

Results

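The genes described here are the mouse Zfp genes, a large set of zinc finger genes named by a number, as measured in E14 embryonic stem cells after inhibition of translation. Members were all symbols made of Zfp and digits, leaving out Zfp36 and Zfp42, that held 50 or more raw counts in each of the 6 libraries. Of the 17485 genes counted, 325 had such a symbol and 163 of these met the count rule. All 163 entered the tests and had a protein-coding gene model. The cells are a pluripotent line of 129/Ola origin, kept in serum with leukaemia inhibitory factor, and the labels give no genetic change in any group. One group received cycloheximide, which blocks the elongation step of translation, at 250 µg/mL for 3 h. A second received the same dose for 6 h. Both were dosed 24 h after seeding with 0.007% ethanol as the vehicle. Control cells received 0.007% ethanol alone for 9 h, so exposure time and drug both separate them from the treated cells. Each group had 2 libraries of polyadenylated RNA, read here as bulk counts per gene.

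Most Zfp genes encode proteins with arrays of C2H2 zinc fingers, small folds held by a zinc ion that together read a DNA sequence. Many also carry a KRAB domain, which recruits the corepressor Trim28 and, through it, Setdb1 and other enzymes that lay down repressive chromatin. In embryonic stem cells such proteins are known for silencing retroelements and for keeping imprinted marks, while other Zfp proteins act as activators or work on RNA, ribosomes or ubiquitin. Transcripts of many transcription factors are short-lived, and cycloheximide is a classical tool for asking which transcripts change in level when no new protein is made.

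The sequences around the starts of 4 members are shown because the results below turn on them: Zfp296 had the largest fall, Zfp105 and Zfp534 the largest rises at 6 h, and Zfp281 is a stem-cell factor that rose at both times. Each runs from 250 bases before to 50 bases after the RefSeq start, on the gene's strand, in build GRCm38.p6. Capitals mark matches, on either strand, to CCGGAAG (the ETS type), GGGCGG (the GC box), TGACGTCA (the cyclic AMP element), GCATGCG (the NRF1 type), AAGATGGC (the YY1 type) or TATAAA (the TATA box). None of these motifs lies within another. The windows lie at chr7:19577037-19577336 (plus strand, Zfp296), chr1:136624651-136624950 (plus strand, Zfp281), chr9:122922828-122923127 (plus strand, Zfp105) and chr4:147702582-147702881 (minus strand, Zfp534).
Zfp296: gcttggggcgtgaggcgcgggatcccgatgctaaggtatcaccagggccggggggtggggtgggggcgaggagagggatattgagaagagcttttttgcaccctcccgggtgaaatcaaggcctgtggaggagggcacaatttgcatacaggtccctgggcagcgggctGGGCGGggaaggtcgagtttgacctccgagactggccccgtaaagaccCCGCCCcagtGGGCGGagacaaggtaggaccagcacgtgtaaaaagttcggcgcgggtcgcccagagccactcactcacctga
Zfp281: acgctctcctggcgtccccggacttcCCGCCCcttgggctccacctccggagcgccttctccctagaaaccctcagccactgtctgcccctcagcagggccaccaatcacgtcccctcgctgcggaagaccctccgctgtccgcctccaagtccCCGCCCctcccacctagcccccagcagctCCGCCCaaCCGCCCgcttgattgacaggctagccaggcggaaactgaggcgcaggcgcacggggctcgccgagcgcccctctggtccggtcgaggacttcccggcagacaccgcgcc
Zfp105: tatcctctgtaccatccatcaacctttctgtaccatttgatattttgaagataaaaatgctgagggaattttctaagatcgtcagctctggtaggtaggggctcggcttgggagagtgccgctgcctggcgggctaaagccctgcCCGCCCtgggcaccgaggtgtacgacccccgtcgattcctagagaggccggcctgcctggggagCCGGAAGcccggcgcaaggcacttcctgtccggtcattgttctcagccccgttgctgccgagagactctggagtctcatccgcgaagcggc
Zfp534: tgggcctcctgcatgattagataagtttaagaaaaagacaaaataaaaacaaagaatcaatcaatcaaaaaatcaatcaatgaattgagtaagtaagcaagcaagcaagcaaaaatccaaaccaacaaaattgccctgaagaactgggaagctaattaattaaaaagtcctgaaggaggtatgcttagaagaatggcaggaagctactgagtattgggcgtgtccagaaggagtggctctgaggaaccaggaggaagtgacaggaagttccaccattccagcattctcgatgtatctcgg

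Zfp296 held 3 GC boxes, Zfp281 held 4, Zfp105 held 1 GC box and 1 ETS-type match, and Zfp534 held 0 matches. The GC content of the Zfp534 window was 40.0%, against 63.3% for Zfp296, 70.7% for Zfp281 and 58.7% for Zfp105. RefSeq start windows could be matched for 133 of the 163 members, 165 windows in all. Their median GC content was 55.3%, against 52.7% over all 32851 windows of that length, and their median number of CpG pairs was 16 against 7. A GC box was present in 49.7% of the members' windows and 35.7% of all windows, and an ETS-type match in 20.6% and 8.86%. The cyclic AMP element stood in 4.24% and 1.79%, the NRF1 type in 7.27% and 3.58%, the YY1 type in 6.67% and 2.75%, and the TATA box in 9.70% and 13.6%. The members had passed the count rule, whereas the 32851 windows were taken whatever the level of their gene. A trait of Zfp genes and a trait of expressed genes in general cannot be told apart here. These shares describe letters in the windows and were not tested.

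Library totals ranged from 9385447 to 27351079 counts, with control replicate 2 the shallowest and the 6 h libraries the deepest. Counts of mitochondrial genes made up 24.7% and 24.9% of the control libraries, 19.6% and 18.9% at 3 h, and 17.4% and 16.6% at 6 h. Of the markers listed for pluripotent stem cells, 10 of 10 were found in the files with none at 0 in all libraries, and their summed level was 6104 and 6222 CPM in controls, 8124 and 8547 CPM at 3 h and 6354 and 6270 CPM at 6 h (counts on a shared library scale, adjusted by the trimmed mean of M values, TMM). By the tests, with TMM scaling, 2 of these 10 markers were called higher at 3 h and 4 lower at 6 h. On that scale 0 had a log2 fold change above 0 at 6 h. Those of fibroblasts summed to 3.46 to 8.10 CPM (4 of 6 in the files), and those of trophoblast to 9.91 and 11.4 CPM in controls and 17.3 to 20.1 CPM in treated libraries (4 of 5). Markers of primitive endoderm summed to 46.8 and 35.5 CPM in controls, 49.1 and 48.0 CPM at 3 h, and 17.5 and 21.2 CPM at 6 h (5 of 5). Mitochondrial share and the trophoblast sum separated treated from control libraries, and the 6 h libraries were deeper than all others. In depth, control replicate 1 (15423587 counts) lay above 3 h replicate 1 (15297359 counts). On these unadjusted sums the stem cell markers were highest at 3 h and the endoderm markers lowest at 6 h, while the fibroblast sums overlapped. The part of these in the results below was not tested. In bulk libraries, fewer cells of a type and less RNA per cell cannot be told apart.

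The members together took a larger share of the counts in every treated library than in any control. They held 0.535% and 0.547% of all counts in the controls, 0.733% and 0.739% at 3 h, and 0.808% and 0.85% at 6 h. On the CPM scaled by TMM, which is used for levels from here on, their sum was 6113 and 6270 in the controls, 7244 and 7152 at 3 h, and 7293 and 7535 at 6 h. The median member stood at 16.7 and 17.7 CPM in the controls, 22.9 and 24.96 CPM at 3 h, and 26.1 and 26.3 CPM at 6 h. Per kilobase of transcript, the highest mean control levels were those of Zfp207 (146 CPM per kb), Zfp706 (125 CPM per kb), Zfp330 (115 CPM per kb), Zfp710 (81.8 CPM per kb) and Zfp771 (57.7 CPM per kb). Of these 5, all but Zfp330 fell at 6 h, as given below.

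**Figure D1:**
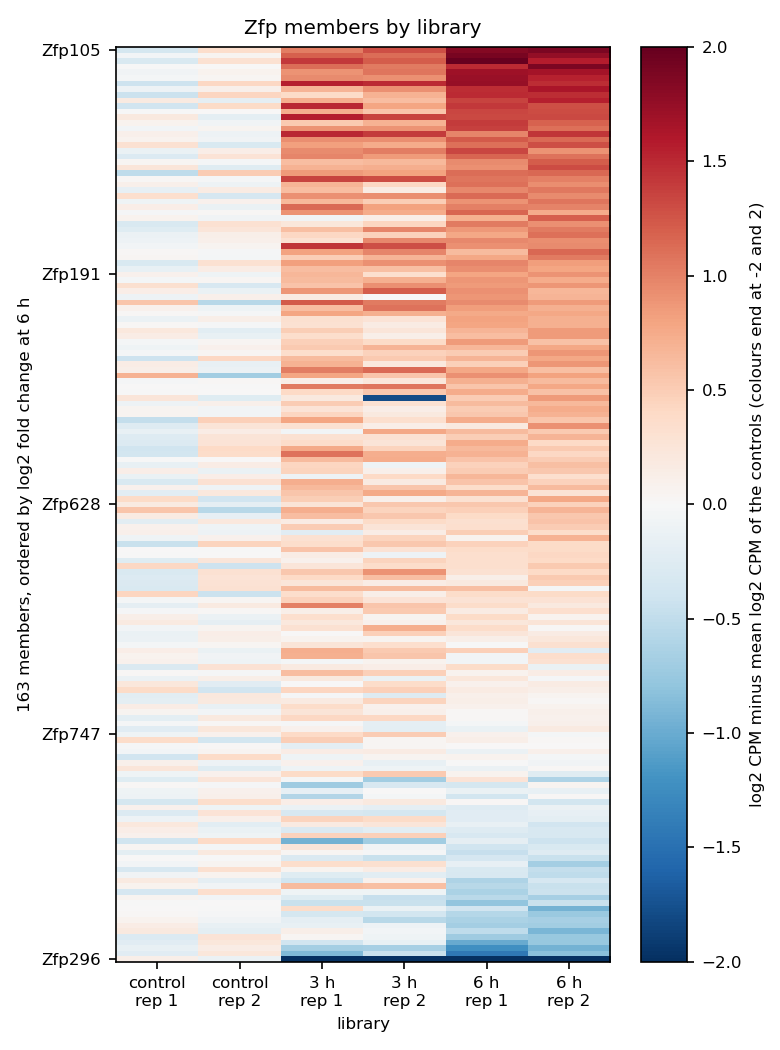
Heat map of the 163 Zfp members (rows, ordered by log2 fold change at 6 h) in the 6 libraries (columns). Colour is log2 CPM minus the mean log2 CPM of the 2 controls, with colours ending at -2 and 2. Most rows are red, that is above the controls, in all 4 treated libraries, and Zfp296 at the bottom is blue in all 4.

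After 3 h of cycloheximide, 25 members rose and 2 fell against control, and 136 did not pass the test. Among all 12755 genes tested, 3.6% were called higher and 1.3% lower in this comparison (edgeR's quasi-likelihood test, adjusted p under 0.05). Thus 15.3% of members were called higher and 1.23% lower, the second share being close to that of all genes. The median log2 fold change of members was 0.38, against 0.02 for all tested genes and -0.06 for the 8073 genes that met the same count rule. Of the 163 members, 132 (81.0%) had a log2 fold change above 0, compared with 52.2% of all tested genes. The number of risers rested on the libraries used: it was 3 without either 3 h replicate, 13 without either 6 h replicate, 28 without control replicate 1 and 22 without control replicate 2.

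Zfp157 had the largest 3 h rise. Its level was 9.71 and 17.2 CPM in control, 37.9 and 36.3 CPM at 3 h and 43.3 and 36.1 CPM at 6 h, giving a log2 fold change of 1.49 ± 0.25 (SE, adjusted p = 0.0163) for 3 h against control. Both treated groups lay above both controls, and the controls themselves differed: the 3 h value was 1.10 without control replicate 1 and 1.94 without control replicate 2. Zfp60, with 19 C2H2 finger patterns, stood at 12.4 and 9.53 CPM in control, 32.4 and 27.9 CPM at 3 h and 27.2 and 27.3 CPM at 6 h, a log2 fold change of 1.44 ± 0.18 (SE, adjusted p = 0.00525). Zfp286 stood at 7.78 and 6.72 CPM in control, 20.5 and 19.1 CPM at 3 h and 14.2 and 19.5 CPM at 6 h, a log2 fold change of 1.44 ± 0.22 (SE, adjusted p = 0.0121). In both genes every treated library lay above every control. Zfp367 stood at 30.9 and 33.6 CPM in control, 86.5 and 78.6 CPM at 3 h and 60.4 and 62.1 CPM at 6 h, a log2 fold change of 1.36 ± 0.13 (SE, adjusted p = 0.00142). Zfp869 stood at 11.4 and 11.1 CPM in control, 28.6 and 27.7 CPM at 3 h and 23.5 and 22.7 CPM at 6 h, a log2 fold change of 1.32 ± 0.16 (SE, adjusted p = 0.00383). The 3 h libraries of both genes lay above the 6 h libraries, which in turn lay above the controls. Zfp367 and Zfp869 were the only risers named here that kept the 3 h call whichever library was left out.

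The other members in the top 12 at 3 h rose by log2 fold changes of 1.05 to 1.30, with adjusted p from 0.012 to 0.0347. They were Zfp963, Zfp534, Zfp105, Zfp599, Zfp408, Zfp101 and Zfp763. Zfp408, known from retinal vessel disease, stood at 7.78 and 6.60 CPM in control, 14.5 and 15.7 CPM at 3 h and 12.3 and 10.9 CPM at 6 h. Zfp101 stood at 9.41 and 9.29 CPM in control, 19.2 and 19.6 CPM at 3 h and 13.8 and 15.9 CPM at 6 h, so that its 6 h libraries lay between those of the other groups. Zfp763 stood at 21.2 and 17.7 CPM in control, 35.8 and 44.8 CPM at 3 h and 36.6 and 30.6 CPM at 6 h, with the 3 h and 6 h libraries overlapping. Without 3 h replicate 1 or without 3 h replicate 2 all of these 7 lost the call, with adjusted p from 0.0595 to 0.162. Of all 27 members called at 3 h, 4 kept the call without 3 h replicate 1 and 4 without 3 h replicate 2. It was kept by 14 without either 6 h replicate, by 16 without control replicate 2 and by 22 without control replicate 1. With limma-voom 20 kept it, and Zfp408 and Zfp963 did not (adjusted p = 0.0506 and 0.0614).

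Zfp296 and Zfp106 were the only members called lower at 3 h. Zfp296, a factor found mainly in pluripotent and germ cells, lies at chr7:19577287-19580656 on the plus strand and has 3 exons and 6 finger patterns. It stood at 40.3 and 34.1 CPM in control, 7.82 and 7.34 CPM at 3 h and 2.08 and 2.03 CPM at 6 h, or 4.92 times lower at 3 h, a log2 fold change of -2.30 ± 0.19 (SE, adjusted p = 0.00043). The groups were far apart, and this call was kept without any one library (log2 fold change -2.41 to -2.17). Zfp106, a large RNA-binding protein required in motor neurons and muscle, stood at 94.8 and 117 CPM in control, 66.1 and 66.9 CPM at 3 h and 45.3 and 54.8 CPM at 6 h, a log2 fold change of -0.67 ± 0.15 (SE, adjusted p = 0.0464). Its 3 h call was lost without control replicate 2 (log2 fold change -0.51, adjusted p = 0.125), without any 1 treated library (adjusted p from 0.0692 to 0.207) and with library size alone as the scaling (log2 fold change -0.44).

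**Figure D2:**
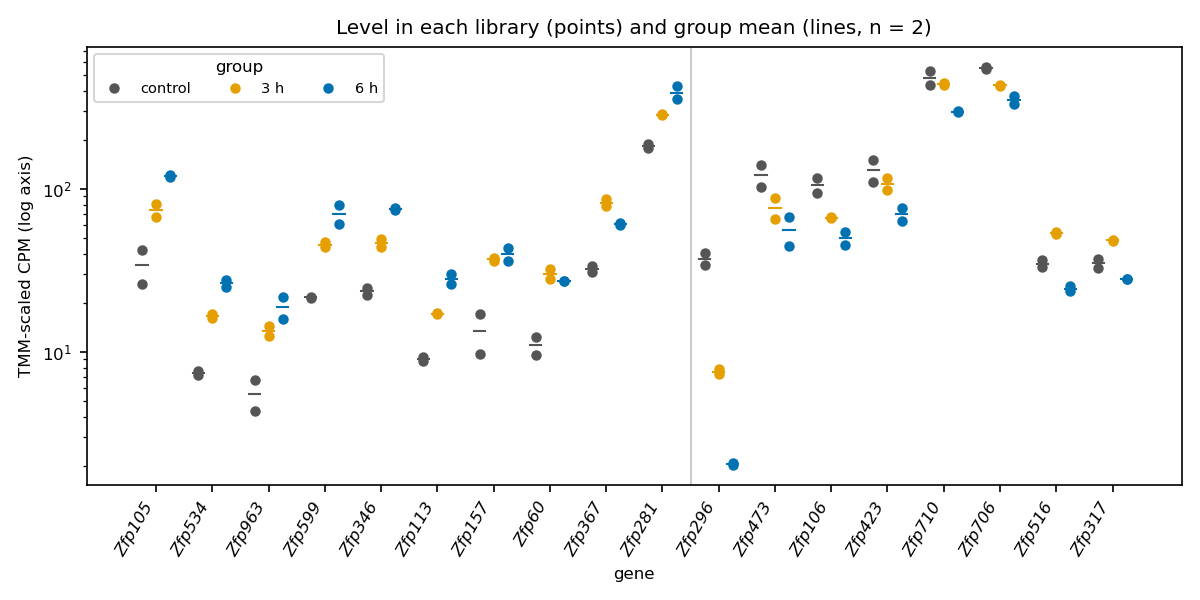
TMM-scaled CPM (log axis) of 18 named members in each library (points) with the mean of each group (lines, n = 2), risers left of the grey line and the rest right of it. Zfp296 drops from 40.3 and 34.1 CPM in control to 2.08 and 2.03 CPM at 6 h, while Zfp105 goes from 26.1 and 42.2 CPM to 119 and 122 CPM.

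After 6 h, 64 members rose, 11 fell and 88 did not pass the test against control. All tested genes were called higher in 14.8% and lower in 14.3%, so the members' shares were 39.3% higher and 6.75% lower. Their median log2 fold change was 0.48, beside 0.04 for all tested genes and -0.11 for genes under the same count rule. A log2 fold change above 0 was found in 125 members (76.7%), and 26 of the called risers were at least 2-fold higher. Leaving out 6 h replicate 1 gave 44 risers and 4 fallers, and leaving out 6 h replicate 2 gave 36 and 6, compared with 60 to 65 and 9 to 10 when another library was left out. The 3 h and 6 h tests share the 2 control libraries.

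With libraries scaled by their size alone, the median of all tested genes stood at 0.25 at 3 h and 0.40 at 6 h, and the members' medians were 0.61 and 0.83. Relative to the median of all genes the members stood 0.36 higher at 3 h and 0.43 higher at 6 h under both scalings. A change of scaling shifts all genes by nearly the same amount, so it could hardly move this difference and is no check of it. The difference was 0.27 at 3 h and 0.29 at 6 h without control replicate 1, and 0.42 and 0.49 without control replicate 2. With no filter it was 0.38 and 0.32. With library size alone the split of calls at 6 h became 92 higher and 4 lower (95.8% higher, against 85.3% by the main scaling). At 3 h it was 58 higher and 1 lower.

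**Figure D3:**
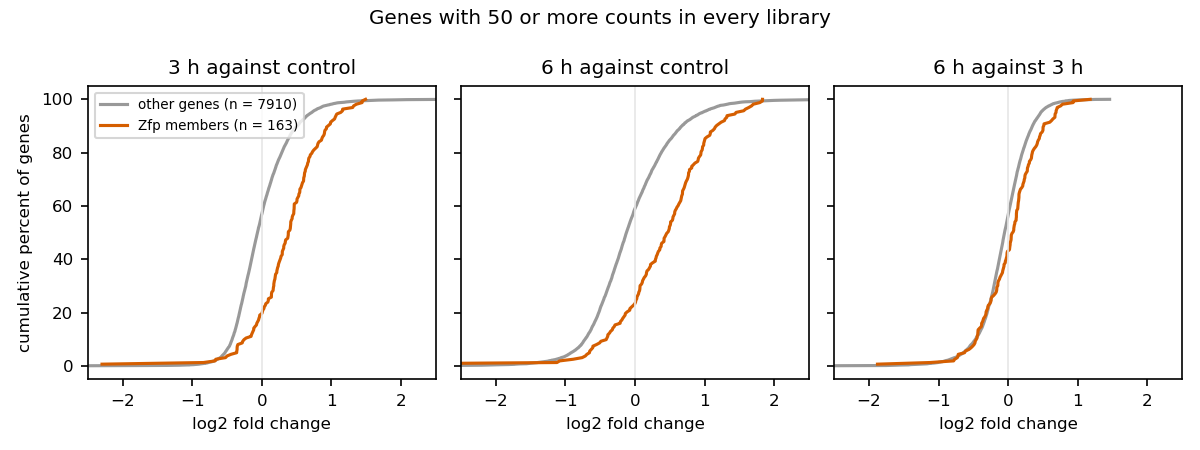
Cumulative percent of genes (vertical axis) by log2 fold change (horizontal axis) for the 163 Zfp members and for the other genes (of 8073 in all) with 50 or more counts in every library, in the 3 comparisons. The members' curve lies right of the other genes' in both comparisons with control, with medians of 0.38 and 0.48, and close to it for 6 h against 3 h.

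Zfp105 and Zfp534 shared the largest rise at 6 h, each 3.56-fold. Zfp105, at chr9:122923072-122931028 (plus strand, 4 exons, 11 finger patterns and no KRAB pattern), stood at 26.1 and 42.2 CPM in control, 67.0 and 81.4 CPM at 3 h and 119 and 122 CPM at 6 h, a log2 fold change of 1.83 ± 0.22 (SE, adjusted p = 0.00106). The levels climbed from control to 3 h to 6 h with no overlap between groups. Its 6 h value was 1.51 without control replicate 1 and 2.21 without control replicate 2. Zfp534, at chr4:147673502-147702553 (minus strand, 15 finger patterns and a KRAB pattern), stood at 7.19 and 7.70 CPM in control, 17.1 and 16.1 CPM at 3 h and 27.8 and 25.1 CPM at 6 h, a log2 fold change of 1.83 ± 0.18 (SE, adjusted p = 0.000446). Zfp963 stood at 4.37 and 6.72 CPM in control, 14.4 and 12.5 CPM at 3 h and 21.7 and 16.0 CPM at 6 h, a log2 fold change of 1.79 ± 0.27 (SE, adjusted p = 0.00284). Zfp599 stood at 21.4 and 21.9 CPM in control, 47.0 and 44.3 CPM at 3 h and 61.0 and 79.7 CPM at 6 h, a log2 fold change of 1.70 ± 0.17 (SE, adjusted p = 0.000464). Each of these KRAB-type members had its 3 h libraries between control and 6 h.

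Zfp346, a protein that binds double-stranded RNA, stood at 22.4 and 24.7 CPM in control, 43.8 and 49.3 CPM at 3 h and 75.9 and 74.2 CPM at 6 h, a log2 fold change of 1.68 ± 0.14 (SE, adjusted p = 0.000224). Zfp113 stood at 8.82 and 9.29 CPM in control, 17.4 and 17.0 CPM at 3 h and 29.9 and 26.3 CPM at 6 h, a log2 fold change of 1.64 ± 0.17 (SE, adjusted p = 0.000621). Zfp157 rose as well, by a log2 fold change of 1.59 ± 0.25 (SE, adjusted p = 0.00328), with levels at 6 h close to those at 3 h. Zfp839 stood at 5.56 and 6.35 CPM in control, 9.5 and 11.2 CPM at 3 h and 16.5 and 18.5 CPM at 6 h, a log2 fold change of 1.56 ± 0.21 (SE, adjusted p = 0.00188). Zfp839 has no match to the finger pattern, although its symbol places it among zinc finger genes. Zfp362 stood at 8.60 and 15.5 CPM in control, 15.1 and 18.7 CPM at 3 h and 32.4 and 32.3 CPM at 6 h, a log2 fold change of 1.45 ± 0.26 (SE, adjusted p = 0.00543). Its 3 h libraries overlapped the controls, and its 6 h libraries lay above all others. Zfp383, Zfp748 and Zfp788, which all carry the KRAB pattern, completed the top 12 with log2 fold changes of 1.44, 1.32 and 1.32. Zfp748 stood at 9.93 and 17.0 CPM in control, 36.8 and 22.5 CPM at 3 h and 34.5 and 31.7 CPM at 6 h and lost the 6 h call without 6 h replicate 1 (adjusted p = 0.0593) or 6 h replicate 2 (adjusted p = 0.0513). The other 11 of the 12 kept the call without any one library. Below the top 12, the 52 other risers had log2 fold changes from 0.49 (Zfp7) to 1.29 (Zfp60).

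Of the 11 members that fell at 6 h, Zfp296 fell most. It was 18.1 times lower than control at 6 h, a log2 fold change of -4.18 ± 0.20 (SE, adjusted p = 2.31e-05), on 63 and 53 counts in the 6 h libraries against 544 and 279 in the controls. Its call held without any one library (-4.29 to -4.05). Zfp473, known for its part in processing histone transcripts, stood at 103 and 140.3 CPM in control, 65.4 and 88.2 CPM at 3 h and 44.7 and 67.1 CPM at 6 h, a log2 fold change of -1.12 ± 0.24 (SE, adjusted p = 0.00986). Both treated groups lay below both controls and overlapped each other, and the call was lost without 6 h replicate 1 (log2 fold change -0.86, adjusted p = 0.0605). Zfp106 fell further than at 3 h, by a log2 fold change of -1.08 ± 0.15 (SE, adjusted p = 0.00235). Zfp423, a developmental factor with 27 finger patterns, stood at 110.2 and 149.9 CPM in control, 98.0 and 117 CPM at 3 h and 63.8 and 76.4 CPM at 6 h, a log2 fold change of -0.89 ± 0.18 (SE, adjusted p = 0.00801). Its call was lost without 6 h replicate 1 (log2 fold change -0.77, adjusted p = 0.0595).

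Several of the most abundant members were among those that fell, but falls were less frequent there than among other genes of like level. The 55 members highest in mean CPM over all libraries held 9 (16.4%) called lower at 6 h and 21 (38.2%) called higher. Among all 4022 genes under the count rule in the same range of level, 29.9% were called lower and 12.8% higher. This difference was not tested. Zfp710 stood at 528 and 432 CPM in control, 433 and 445 CPM at 3 h and 299.8 and 295 CPM at 6 h, a log2 fold change of -0.69 ± 0.12 (SE, adjusted p = 0.00444). The 3 h libraries lay within the range of the controls, and both 6 h libraries lay below every other library. Zfp706, whose loss is known to delay exit from the pluripotent state, stood at 561 and 547 CPM in control, 435 and 429.8 CPM at 3 h and 373 and 332 CPM at 6 h, a log2 fold change of -0.65 ± 0.10 (SE, adjusted p = 0.00334). Zfp574 stood at 122 and 177 CPM in control, 151 and 139 CPM at 3 h and 89.4 and 86.6 CPM at 6 h, a log2 fold change of -0.76 ± 0.17 (SE, adjusted p = 0.0125). As in Zfp710, its 3 h libraries lay within the range of the controls and its 6 h libraries below. Zfp771 stood at 81.2 and 90.1 CPM in control, 72.2 and 74.1 CPM at 3 h and 68.2 and 60.2 CPM at 6 h, a log2 fold change of -0.41 ± 0.13 (SE, adjusted p = 0.0417). Zfp566 stood at 26.2 and 24.3 CPM in control, 21.3 and 18.4 CPM at 3 h and 17.3 and 15.9 CPM at 6 h, a log2 fold change of -0.60 ± 0.16 (SE, adjusted p = 0.0247). In both genes the treated groups lay below the controls and the 6 h libraries were lowest. With library size alone, Zfp207, Zfp423, Zfp516, Zfp566, Zfp574, Zfp710 and Zfp771 were no longer called lower, with log2 fold changes from -0.53 to -0.03. Without 6 h replicate 1 or without 6 h replicate 2, Zfp207, Zfp516, Zfp566, Zfp574 and Zfp771 lost the call, with adjusted p from 0.0603 to 0.241. Of these, Zfp207, Zfp516, Zfp566 and Zfp771 lost it also without 1 or other of the controls, and Zfp516 and Zfp771 also without 3 h replicate 1 and, for Zfp771, 3 h replicate 2. Zfp296, Zfp106, Zfp706 and Zfp710 kept it without any one library.

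Between the treatment times few members differed. At 6 h against 3 h, 2 members rose and 4 fell, where all tested genes were called higher in 0.455% and lower in 1.18%. The median log2 fold change of members was 0.07 and that of all genes 0.01. Zfp296 was lower again, by a log2 fold change of -1.88 ± 0.20 (SE, adjusted p = 0.00497). Zfp516, a factor of brown fat development, stood at 36.5 and 33.2 CPM in control, 54.1 and 52.7 CPM at 3 h and 23.6 and 25.5 CPM at 6 h. It rose at 3 h, by a log2 fold change of 0.61 ± 0.14 (SE, adjusted p = 0.0434), fell at 6 h, by a log2 fold change of -0.51 ± 0.14 (SE, adjusted p = 0.0255), and was lower at 6 h than at 3 h by a log2 fold change of -1.12 ± 0.14 (SE, adjusted p = 0.00835). The 3 groups did not overlap, with 3 h highest. The 3 h rise was lost without control replicate 2 or any 1 treated library (adjusted p from 0.088 to 0.188), and with limma-voom (0.0513). Zfp317 stood at 37.1 and 32.9 CPM in control, 48.0 and 48.8 CPM at 3 h and 28.1 and 28.1 CPM at 6 h, which between the times is a log2 fold change of -0.78 ± 0.14 (SE, adjusted p = 0.0325). Zfp961 stood at 121 and 140.2 CPM in control, 178 and 169.5 CPM at 3 h and 111 and 114 CPM at 6 h, between the times a log2 fold change of -0.63 ± 0.12 (SE, adjusted p = 0.0392). Both were higher in the 3 h libraries than in any other. Zfp746, a repressor known as a substrate of parkin, stood at 84.3 and 97.5 CPM in control, 103 and 91.0 CPM at 3 h and 168 and 144 CPM at 6 h, between the times a log2 fold change of 0.69 ± 0.14 (SE, adjusted p = 0.0489). Its 3 h libraries overlapped the controls. Zfp346 rose between the times by a log2 fold change of 0.69 ± 0.13 (SE, adjusted p = 0.0459).

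These calls rested on both replicates of each time, except that Zfp296 kept its call without 3 h replicate 2. Without 3 h replicate 1, 6 h replicate 1 or 6 h replicate 2 no member was called in either direction, and without 3 h replicate 2 only Zfp296 was (1 lower). Without control replicate 1 or 2, whose levels are not part of this difference, 10 members were called higher and 7 lower. With library size alone 8 were called higher and 2 lower, a split of 80.0% higher against 33.3% by the main scaling, with the median of all genes at 0.14.

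Of 10 Zfp genes listed for known roles in stem cells, 9 were members. At 3 h 1 of the 9 rose and 1 fell, and at 6 h 3 rose and 3 fell, their median log2 fold changes being 0.20 and 0.07. All tested genes were called higher in 3.6% and lower in 1.3% at 3 h, and in 14.8% and 14.3% at 6 h, against which a list of 9 genes gives only a coarse share. Zfp281, a factor that binds GC-rich DNA and acts in the exit from naive pluripotency, lies at chr1:136624901-136630053 on the plus strand in 2 exons. It stood at 189 and 179 CPM in control, 283 and 289 CPM at 3 h and 355 and 426 CPM at 6 h, a log2 fold change of 0.63 ± 0.12 (SE, adjusted p = 0.0238) at 3 h and a log2 fold change of 1.08 ± 0.12 (SE, adjusted p = 0.00075) at 6 h. The groups did not overlap at any time. Its 3 h call was lost without control replicate 2 or either 3 h replicate, with adjusted p from 0.061 to 0.145. Zfp217 stood at 105 and 96.8 CPM in control, 135 and 116 CPM at 3 h and 146 and 164 CPM at 6 h, rising at 6 h by a log2 fold change of 0.62 ± 0.13 (SE, adjusted p = 0.00953). Zfp462, a chromatin-associated protein with 33 finger patterns, stood at 130.0 and 121 CPM in control, 151 and 137 CPM at 3 h and 179 and 211 CPM at 6 h, giving a log2 fold change of 0.63 ± 0.13 (SE, adjusted p = 0.00801) for 6 h against control. Both lost the 6 h call without 6 h replicate 2 (adjusted p = 0.0759 for Zfp217 and 0.0699 for Zfp462).

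The fallers at 6 h were Zfp296, Zfp706 and Zfp207, a mitotic spindle protein. Zfp207 stood at 228 and 227 CPM in control, 187 and 168 CPM at 3 h and 180.1 and 168 CPM at 6 h, giving a log2 fold change of -0.39 ± 0.11 (SE, adjusted p = 0.0302) for 6 h against control. Zfp57, the KRAB protein that keeps imprinted methylation, stood at 5.56 and 7.82 CPM in control, 6.98 and 9.01 CPM at 3 h and 8.28 and 8.66 CPM at 6 h, giving a log2 fold change of 0.36 ± 0.26 (SE, adjusted p = 0.343) for 6 h against control. Zfp809, the KRAB protein that recognises retroviral primer binding sites, stood at 8.0 and 10.6 CPM in control, 9.04 and 7.74 CPM at 3 h and 9.87 and 9.54 CPM at 6 h, giving a log2 fold change of 0.07 ± 0.23 (SE, adjusted p = 0.847) for 6 h against control. Zfp143, which binds promoters and chromatin loop anchors, stood at 26.7 and 28.8 CPM in control, 35.5 and 34.7 CPM at 3 h and 24.9 and 17.4 CPM at 6 h, giving a log2 fold change of -0.39 ± 0.19 (SE, adjusted p = 0.155) for 6 h against control. The control and treated libraries of Zfp57 and Zfp809 overlapped or lay close together, and none of the 3 passed edgeR's test in any comparison. Zfp143 had for 6 h against 3 h a log2 fold change of -0.73 ± 0.19 (SE, adjusted p = 0.0958), and that difference passed with DESeq2 (adjusted p = 0.0272) and with no filter (0.00489). A p that misses the threshold does not show that their levels did not differ.

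Among 9 Zfp genes listed for roles on RNA, ribosomes or ubiquitin, 8 were members. Of these 8, 1 rose and 1 fell at 3 h, and 3 rose and 1 fell at 6 h. Of all tested genes 3.6% were called higher and 1.3% lower at 3 h, and 14.8% and 14.3% at 6 h. The faller at 6 h was 12.5% of the 8, near the share of all genes. A list of 8 genes gives only a coarse share. The riser at 3 h was Zfp346, by a log2 fold change of 0.99 ± 0.14 (SE, adjusted p = 0.00875), a call lost without 3 h replicate 2 (adjusted p = 0.0774). The risers at 6 h were Zfp346, Zfp593 and Zfp326, and the faller was Zfp106. Zfp593, which takes part in export of the large ribosomal subunit, stood at 11.2 and 11.9 CPM in control, 16.0 and 15.1 CPM at 3 h and 20.7 and 17.2 CPM at 6 h, a log2 fold change of 0.72 ± 0.18 (SE, adjusted p = 0.0202). Zfp326, a splicing-linked protein, stood at 54.3 and 44.0 CPM in control, 62.2 and 53.1 CPM at 3 h and 75.2 and 88.1 CPM at 6 h, a log2 fold change of 0.73 ± 0.16 (SE, adjusted p = 0.0119). Zfp593 lost the call without control replicate 1 (adjusted p = 0.0569) or either 6 h replicate (0.14 and 0.0562), and Zfp326 without 6 h replicate 2 (0.0923). Zfp598, the ubiquitin ligase that senses collided ribosomes, stood at 25.8 and 27.5 CPM in control, 32.0 and 33.7 CPM at 3 h and 26.4 and 33.3 CPM at 6 h, giving a log2 fold change of 0.30 ± 0.16 (SE, adjusted p = 0.286) at 3 h and a log2 fold change of 0.17 ± 0.16 (SE, adjusted p = 0.476) at 6 h. Zfp622, which acts in maturation of the large ribosomal subunit, stood at 43.2 and 38.6 CPM in control, 37.7 and 36.2 CPM at 3 h and 34.3 and 37.6 CPM at 6 h, giving a log2 fold change of -0.19 ± 0.14 (SE, adjusted p = 0.342) for 6 h against control. Neither passed edgeR's test in any comparison, and Zfp91 and Zfp830 did not either. With library size alone Zfp598 was called higher at 6 h (log2 fold change 0.52, adjusted p = 0.0419).

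Members were then grouped by features of their coding sequence, a grouping chosen after the files were seen. In-frame codons of each gene's longest GENCODE coding transcript were read for the C2H2 finger pattern (2 cysteines 2 residues apart, 12 residues, then 2 histidines 3 to 5 residues apart). A pattern of the KRAB A box was sought in all coding transcripts of the gene, and a match in any of them was counted. The patterns miss variant fingers and boxes, so the counts are counts of matches. A KRAB pattern was found in 76 members, with a median of 12 finger patterns and 4 exons, and not in 87, with a median of 5 finger patterns and 6 exons. Of the 76, 15 rose and 0 fell at 3 h and 34 rose and 1 fell at 6 h, with median log2 fold changes of 0.51 and 0.55. Of the 87 without, 10 rose and 2 fell at 3 h and 30 rose and 10 fell at 6 h, with medians of 0.29 and 0.36. Thus all but 1 of the 11 members that fell at 6 h lacked the KRAB pattern, the exception being Zfp566. These 10 were 11.5% of the 87, below the 14.3% of all tested genes and 21.4% of genes under the count rule called lower. The fallers were 1.32% of the 76 with the pattern. Risers at 3 h were 19.7% of the 76 and 11.5% of the 87, beside 3.6% of all tested genes. At 6 h the risers were 44.7% of the 76 and 34.5% of the 87, beside 14.8% of all tested genes. The 2 fallers at 3 h were 2.30% of the 87, not far above the 1.3% of all tested genes. Among the 55 members highest in mean CPM, 40 lacked the pattern, of which 9 fell, and 15 carried it, of which 0 fell. The difference between members with and without the pattern was not tested. Without 3 h replicate 1 the KRAB-type risers at 3 h numbered 1, without 3 h replicate 2 they numbered 2, and without either 6 h replicate 9. At 6 h they numbered 22 without 6 h replicate 1.

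**Figure D4:**
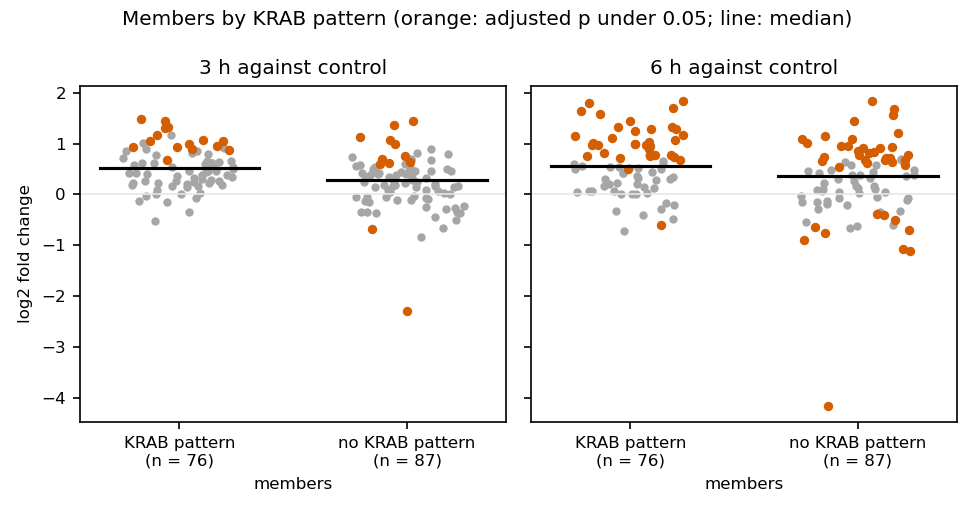
Log2 fold change (vertical axis) of each member at 3 h and at 6 h against control, split by whether a KRAB pattern was found (76 members) or not (87); orange points passed an adjusted p under 0.05 and lines are medians. The medians are 0.51 and 0.29 at 3 h and 0.55 and 0.36 at 6 h, and the members below -1 at 6 h all lack the pattern.

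The KRAB-type members were less abundant, with a median mean level of 11.6 CPM in control against 26.6 CPM for the others, so the groups were also compared within 3 classes of near-equal size by mean CPM over all libraries (low, middle and high). In the low class the median 6 h log2 fold change was 0.36 for 33 members with the pattern and 0.11 for 21 without. In the middle class it was 0.97 for 28 and 0.50 for 26, and in the high class 0.49 for 15 and 0.31 for 40. In the same ranges of level, all genes under the count rule had medians of -0.05, 0.02 and -0.20. The members' medians in these classes were 0.33, 0.73 and 0.38.

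Members with more fingers also had higher medians at 3 h. The 23 members with 0 to 2 finger patterns had a median log2 fold change of 0.14, the 36 with 3 to 7 of 0.21, the 55 with 8 to 12 of 0.42 and the 49 with 13 or more of 0.60. At 6 h the medians were 0.17, 0.26, 0.51 and 0.55 in the same order. Spearman's rho between the number of finger patterns and the log2 fold change over the 163 members was 0.36 at 3 h and 0.22 at 6 h (Pearson's r 0.29 and 0.18), a description across genes that share the 6 libraries. For level and for transcript length rho lay between -0.10 and 0.12 in both comparisons with control. Finger number and the KRAB pattern went together, with medians of 12 finger patterns with it and 5 without. All 23 members with 0 to 2 finger patterns lacked the KRAB pattern. The parts of the 2 features were not tested apart.

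Many Zfp genes lie in clusters of related genes. How reads that fit more than 1 gene were counted is not given in the sources used here, so values of near-identical neighbours are uncertain. Chromosome 7 held 40 members, of which 13 (32.5%) rose and 6 (15.0%) fell at 6 h (median log2 fold change 0.40), beside 14.8% and 14.3% of all tested genes. The share that fell was thus close to that of all genes. Chromosome 17 held 19, of which 9 rose and 0 fell (0.67), and chromosome 8 held 16, of which 4 rose and 1 fell (0.20). Chromosome 13 held 8, of which 6 rose and 0 fell, with the highest median among chromosomes with 6 or more members (0.95). Zfp296, Zfp473, Zfp566, Zfp574, Zfp710 and Zfp771 are the 6 fallers on chromosome 7. The 9 risers on chromosome 17 were Zfp101, Zfp160, Zfp229, Zfp563, Zfp763, Zfp799, Zfp945, Zfp952 and Zfp959, and each carries the KRAB pattern. Zfp799, for example, stood at 14.7 and 13.3 CPM in control, 26.8 and 26.8 CPM at 3 h and 32.8 and 30.7 CPM at 6 h, giving a log2 fold change of 1.17 ± 0.15 (SE, adjusted p = 0.00155) for 6 h against control. Every treated library of it was above both controls. The names from outside the top lists here were chosen after their values were seen.

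**Figure D5:**
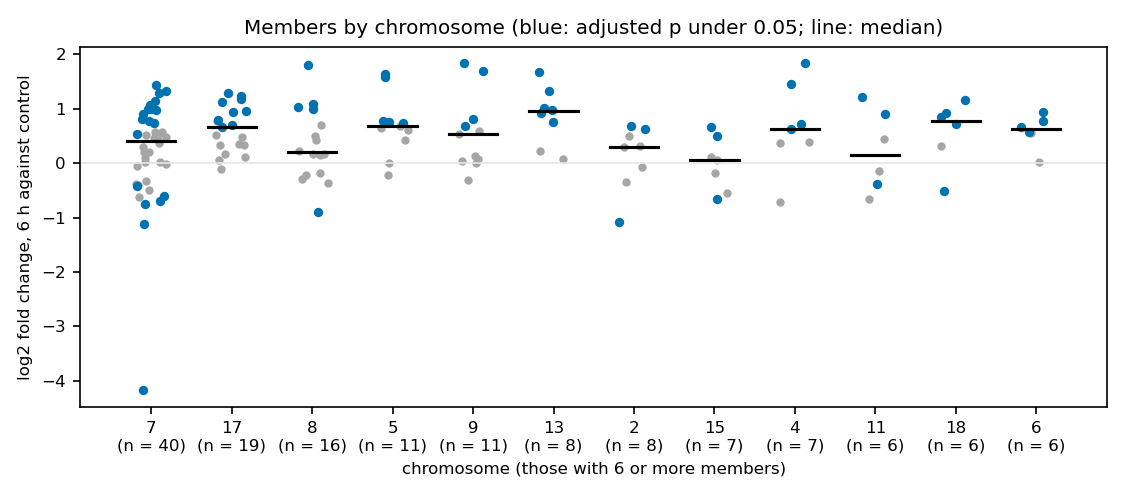
Log2 fold change at 6 h against control (vertical axis) of each member by chromosome, for the 12 chromosomes with 6 or more members; blue points passed an adjusted p under 0.05 and lines are medians. On chromosome 13, 6 of 8 members rose, and chromosome 7 with 40 members holds 6 of the 11 fallers, with Zfp296 lowest.

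The partners through which KRAB proteins act were also counted. Of 24 listed corepressor genes, 0 rose and 1 fell at 3 h, and 4 (16.7%) rose and 6 (25%) fell at 6 h, the median log2 fold change at 6 h being -0.10. Of all tested genes 14.8% were called higher and 14.3% lower at 6 h, so the share of risers was near that of all genes. Trim28, the corepressor that binds the KRAB domain, stood at 3514 and 3385 CPM in control, 2596 and 2505 CPM at 3 h and 2463 and 1860.1 CPM at 6 h, a log2 fold change of -0.67 ± 0.13 (SE, adjusted p = 0.00686) at 6 h. Every treated library was below both controls, and with library size alone the call was lost (log2 fold change -0.32, adjusted p = 0.078). Setdb1, the histone methyltransferase it recruits, stood at 120.0 and 146 CPM in control, 132 and 173 CPM at 3 h and 169.8 and 169.9 CPM at 6 h, giving a log2 fold change of 0.35 ± 0.16 (SE, adjusted p = 0.125) at 6 h that did not pass the test, but with library size alone it did (log2 fold change 0.71, adjusted p = 0.0116). The other fallers at 6 h were the heterochromatin proteins Cbx5 and Cbx3, Chd4, Ehmt2 and Sumo2, and the risers were Suv39h2, Atf7ip, Mphosph8 and 2810474O19Rik (now Resf1). Whether the KRAB-type members and the corepressors differ was not tested.

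Other zinc finger families were counted by symbol. Of 34 tested Zbtb genes, 4 rose and 0 fell at 3 h and 7 rose and 0 fell at 6 h (median log2 fold change 0.26 at 6 h). The 6 h risers were 20.6% of these genes, not far above the 14.8% of all tested genes. Of 18 tested Zscan and Zkscan genes, 2 rose at 3 h and 9 at 6 h with 0 fallers (0.86). By sequence pattern and with any symbol, 224 tested genes held a KRAB pattern and 3 or more finger patterns, of which 35 rose and 0 fell at 3 h and 102 rose and 1 fell at 6 h, with medians of 0.64 and 0.87. This set includes the 76 KRAB-type members. The 148 outside the members numbered 20 risers at 3 h and 68 at 6 h, with 0 fallers.

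The count rule used the values of these libraries, and its effect is given here as a description. Of the 162 Zfp symbols outside it, 159 had fewer than 50 counts in control replicate 2, where 50 counts equal 5.33 CPM before TMM adjustment, against 1.83 CPM in 6 h replicate 1. Below 50 counts in a control library only were 75, and below it in a treated library only were 0. Just inside stood Zfp446 (lowest count 51), Zfp53, Zfp652 and Zfp839 (52 each) and Zfp296 (53). Just outside stood Zfp319 and Zfp637 (49 each), Zfp235 (48), Zfp40 (47) and Zfp397 (46). Zfp296 had its lowest count at 6 h, and the other 9 had theirs in a control library. Of the 162, 139 could be tested, and 16 rose and 0 fell at 3 h and 55 rose and 0 fell at 6 h, with medians of 0.81 and 1.03. The risers were 11.5% of the 139 at 3 h and 39.6% at 6 h, beside 3.6% and 14.8% of all tested genes. Because the 162 were left out mainly through low control counts, the rule itself favours rises in this set. These rises therefore lend no support to those of the members.

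Replicates of a group agreed to a median difference of 0.26 on the log2 scale over the members in control, 0.17 at 3 h and 0.16 at 6 h. More than 2-fold apart were 4 members in control (Zfp553, Zfp644, Zfp84 and Zfp871), 1 at 3 h (Zfp386) and 0 at 6 h. Zfp386 stood at 19.3 and 13.8 CPM in control, 18.7 and 4.74 CPM at 3 h and 23.2 and 29.6 CPM at 6 h, so its 3 h replicate 2 lay far below the other 5 libraries. Zfp644 stood at 67.9 and 25.9 CPM in control, 72.8 and 61.9 CPM at 3 h and 78.7 and 73.6 CPM at 6 h, with control replicate 2 low. Zfp871 stood at 61.8 and 28.3 CPM in control, 98.4 and 85.6 CPM at 3 h and 80.2 and 75.2 CPM at 6 h, with the same control low, and none of these 3 passed the test against control. Nothing in the labels says that replicates came from separate cultures, so p-values measure the spread between these libraries, which may be technical.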

How the data were processed

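Polyadenylated RNA of E14 cells was measured in 6 libraries, 2 in each of 3 groups taken from the sample titles. The values the authors deposited are whole-number counts for 17485 genes in each library; the genome build is mm10 per the submitters' processing notes, and the aligner, the counter, strandedness and any collapsing of duplicate molecules are not given in the sources used here. The series title calls the data bulk and its design text mentions single cells, and each file was read as 1 bulk library. The Zfp genes, the gene lists and the rules below were chosen with earlier results of these data known.

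Genes were kept by edgeR's filterByExpr (minimum count 10, minimum total 15), which left 12755, and were fitted with edgeR 4.0.16 in R 4.3.3: TMM scaling, group means over all 6 libraries (3 residual degrees of freedom), the quasi-likelihood test, two-sided, with Benjamini-Hochberg adjustment over all tested genes in each of 3 comparisons. An adjusted p under 0.05 was called. Log2 fold changes carry the standard error implied by the quasi-likelihood F. Fold changes are ratios between groups. Levels are TMM-scaled CPM, apart from the marker sums, which are CPM without TMM. On simulated counts this fit recovered 49.0% of 96 genes changed 2-fold at 3 h and 52.5% of 99 at 6 h, and 81.4% of 97 and 83.7% of 98 genes changed 4-fold, with 7.35% and 7.59% of calls false. For 6 h against 3 h it recovered 51.5% of 97 genes changed 2-fold and 79.4% of 97 changed 4-fold, with 9.93% of calls false. These false shares all lay above the share of 0.05 that the threshold aims at. limma 3.58.1 (voom), DESeq2 1.42.0, other scalings, no filter, a replicate block, thinning and leaving out each library were the alternatives.

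Named were, in each comparison, the 12 members with the largest rise and the 12 with the largest fall among those called whose libraries did not overlap, a fixed list of 12 Zfp genes where they were members (Zfp219 was not), and the 5 nearest to the count rule on each side. Gene models, exons and coding codons are from GENCODE M21 (GRCm38). All 163 members were matched, 3 of them by an older symbol. No protein table was used, so fingers and KRAB boxes were searched in in-frame codons.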

Additional observations from a re-analysis of the deposited data

Results flagged for a closer look

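Between 3 h and 6 h of cycloheximide, 6 members differed by edgeR's quasi-likelihood test of that difference itself, so their change against control was not the same at the 2 times. The log2 fold change of 6 h against 3 h was -1.88 for Zfp296, -1.12 for Zfp516, -0.78 for Zfp317 and -0.63 for Zfp961. It was 0.69 for Zfp346 and 0.69 for Zfp746. Zfp296 was lower than control at both times and lower still at 6 h. Zfp516, Zfp317 and Zfp961 had their highest levels at 3 h. Zfp346 was higher than control at both times, and Zfp746 at 6 h. Groups of 2 libraries were too small to look for a single library far from its group. The Zfp296 call was kept without 3 h replicate 2, and it was lost without 3 h replicate 1 (adjusted p = 0.0527), 6 h replicate 1 or 6 h replicate 2. The other 5 calls were lost without any 1 of the 4 treated libraries. With library size alone the calls of Zfp317 (adjusted p = 0.058) and Zfp961 (0.0745) were lost, with upper quartile scaling that of Zfp961 (0.0524), and with libraries thinned to the smallest that of Zfp346 (0.0531).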

How the results depend on the processing

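The members called numbered 27 at 3 h, 75 at 6 h and 6 for 6 h against 3 h. None of them changed sign under the scalings, tools, filter, block, thinning or left-out libraries tried. A stricter threshold leaves the sign as it is. The settings reuse the libraries that gave the calls, so a change of sign was unlikely beforehand and this is a weak check. Members called higher at 3 h numbered 25 in the main test, 40 with DESeq2, 58 with library size alone, 51 with no filter, 4 at an adjusted p under 0.01, 15 of 101 members with 100 or more counts and 41 of 243 chosen by mean CPM in place of a minimum. The 2 called lower became 4 with DESeq2 or no filter, and 1 with library size alone, at an adjusted p under 0.01, or with 100 or more counts. At 6 h the 64 called higher became 40 at an adjusted p under 0.01, 38 with 100 or more counts and 109 by mean CPM, and the 11 called lower became 4 with library size alone and 6 at an adjusted p under 0.01. For 6 h against 3 h the 2 called higher became 11 with limma-voom, 15 with DESeq2, 8 with library size alone, 19 with no filter, 1 when libraries were thinned to the smallest and 0 at an adjusted p under 0.01. The 4 called lower became 8 with DESeq2 or no filter, and 2 with library size alone or at an adjusted p under 0.01. The members' median at 3 h was 0.61 with library size alone, 0.46 for the 223 members with 20 or more counts, 0.29 with 100 or more and 0.50 by mean CPM. At 6 h it was 0.83 with library size alone, 0.56 with 20 or more counts and 0.62 by mean CPM. For 6 h against 3 h it was 0.20 with library size alone, 0.10 with upper quartile scaling, 0.10 with 20 or more counts, 0.12 with 100 or more and 0.12 by mean CPM. The cause of these shifts was not tested, apart from the smaller or larger member lists.

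Leaving out each library in turn gave 3 to 28 higher and 1 to 3 lower at 3 h (median 0.33 to 0.46), 36 to 65 higher and 4 to 10 lower at 6 h (median 0.38 to 0.55), and 0 to 10 higher and 0 to 7 lower for 6 h against 3 h (median 0.031 to 0.076). A lone library of a group was then assumed to vary like the other groups.

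The correlation of same-numbered libraries' deviations over genes was 0.09 for control and 3 h, -0.02 for control and 6 h and 0.02 for 3 h and 6 h. These values gave little sign that replicate numbers pair the libraries. Counting noise of single libraries lowers such a correlation, so it cannot exclude a pairing. With the replicate number as a block, 20 members were called higher and 3 lower at 3 h, 65 and 11 at 6 h, and 0 and 2 for 6 h against 3 h. Of the called members, 22 of 27, 73 of 75 and 2 of 6 kept the call under the block; Zfp516 (adjusted p = 0.0619) and Zfp963 (0.0589) were among those that lost it at 3 h, and Zfp771 (0.0548) at 6 h. For 6 h against 3 h, DESeq2 and no filter called also Zfp143, Zfp281 and Zfp462, among others.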
